A study of Mus musculus with 3 samples.

Results

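The genes described here were 50 mouse genes of the DNA damage response: those that signal a break, join or recombine broken ends, and excise damaged or mispaired bases. They were chosen by name, and a probe belonged to a gene when the transcript accession given for it on the array matched that gene. All 50 had a probe, 88 probes in all, out of 23454 named genes on the array. By role, 8 act in damage signalling, 4 in the sensing and trimming of broken ends, 7 in end joining, 12 in homologous recombination, 3 in the repair of interstrand crosslinks, 7 in base excision and single-strand break repair, 7 in nucleotide excision repair and 2 in mismatch repair.

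The study asked whether the gene expression of blastocysts from aging mothers differs from that of young mothers, and whether blocking the chemokine CXCL5 and its receptor CXCR2 in culture alters it. All embryos came from superovulated ICR females, an outbred mouse strain, and developed from the zygote in KSOM medium for 96 h. The young group came from mothers of 3 to 6 weeks of age and the aging group from mothers of 43 to 53 weeks of age, both without treatment. The suppressed aging (treated) group came from mothers of 43 to 53 weeks of age and received 10 μg/ml of a neutralizing antibody to CXCL5 together with 10 nM of a selective CXCR2 antagonist. The antibody and the antagonist were given together, so their parts cannot be told apart, and no young embryos with the treatment were on an array.

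Each condition was 1 pool of 30 blastocysts on 1 array, so that the spread between embryos is unknown and the conditions could not be tested against each other. Levels are the log2 spot intensity minus the array's 75th percentile, so that 0 is the 75th percentile of all probes. A difference of 1 on this scale is 2-fold. Where 3 levels follow a gene's name, they are those of the young, the aging and the suppressed aging array in this order. A gene was read by its probe with the brightest mean signal, and where a probe was well above background on 1 of the arrays compared and not on the other, the difference is a bound. Replicate spots of a probe within an array had a median SD of 0.05 (young), 0.05 (aging) and 0.05 (suppressed aging) on the log2 scale, which covers the spotting and scanning only. In a pool, fewer cells of a type and less RNA per cell cannot be told apart.

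A preimplantation embryo passes through rapid divisions with short gap phases and starts from proteins and mRNA laid down in the oocyte. A DNA double-strand break is sensed by the MRN complex and the kinase ATM, and single-stranded DNA at a stalled fork by the kinase ATR. The break is then either joined end to end with little trimming, or trimmed and copied from the sister chromatid by homologous recombination. Smaller lesions are cut out by base excision, nucleotide excision or mismatch repair.

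The blastocyst label was checked by marker genes, which cannot tell young from aging or treated from untreated pools. All 7 trophectoderm and all 7 inner cell mass markers were above background on the 3 arrays, and of 8 markers of the cumulus and granulosa cells that surround an oocyte 3 were. Their summed linear level was 405, 374 and 438, nearly all of it from Foxl2, with levels of 8.66, 8.54 and 8.77 on the log2 scale, while Fshr, Has2, Lhcgr, Ptx3 and Tnfaip6 were above background on no array. Of 9 oocyte transcripts, 4 were above background in the young, 5 in the aging and 3 in the treated pool, and their summed linear level was 0.747, 1.95 and 0.773. Zp1, Zar1, Mos and Oosp1 were above background on no array. Of 6 blood markers, 3, 3 and 2 were above background, with summed linear levels of 5.88, 4.18 and 2.29, while Hbb-bt and Ptprc were above background on none. Of the 5 oocyte transcripts with a value between aging and young, Zp2 and Zp3, of the coat of the oocyte, and Bmp15, an oocyte growth factor, were over 2-fold higher in aging (log2 differences of 2.35, 2.08 and at least 2.95), whereas Gdf9 and Nlrp5 differed by -0.06 and -0.30. The part of these transcripts in the differences described below was not tested.

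Repair genes were nearly all expressed in the blastocyst. Of the 50 genes, 49 were above background on all 3 arrays (98.0%), as were 96 of 99 other repair genes, against 58.9% of all named genes. The exception was Rad51b, a gene of homologous recombination, which was above background on the suppressed aging array only. Of the 88 probes, 78 were above background on all 3 arrays and 3 on none.

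**Figure D1:**
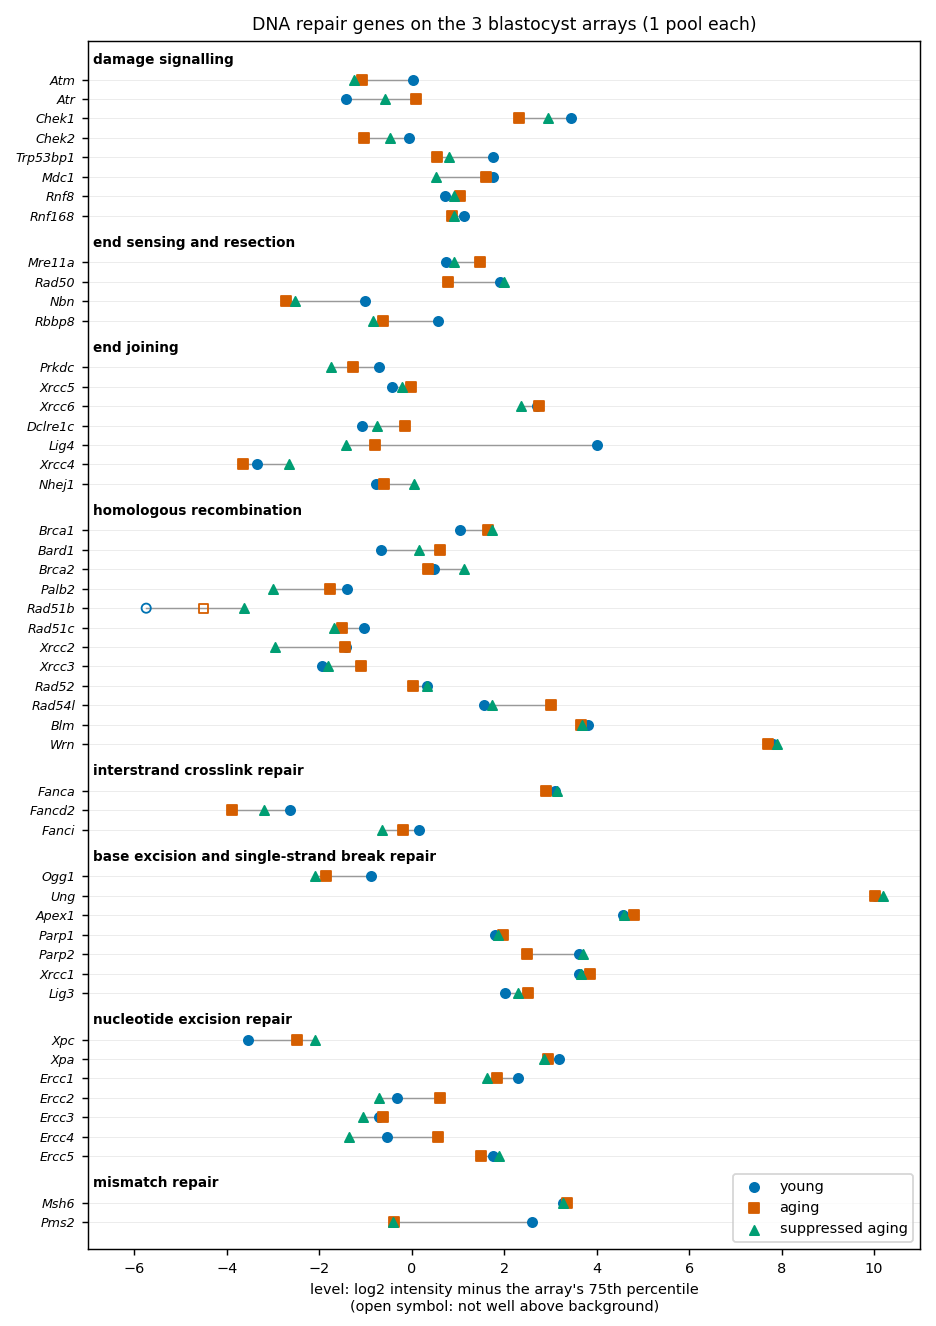
Level of each of the 50 repair genes on the 3 arrays, by role, as log2 intensity minus the array's 75th percentile (1 pool per condition, no error bars; open symbols were not well above background). Most genes lie close together on the 3 arrays, whereas Lig4 and Pms2 sit far higher on the young array, at 4.0 and 2.61, than on both aging arrays.

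Among the 50 genes, the largest differences were those of Lig4 and Pms2, which were high in young and low in both aging pools. Lig4 is the DNA ligase that seals broken ends in end joining. Its level was 4.0 in the young, -0.79 in the aging and -1.43 in the treated pool. It was thus 27.6-fold lower in aging than in young blastocysts (log2 difference -4.79) and 43.0-fold lower in suppressed aging than in young blastocysts (-5.43). The aging arrays differed from each other by 1.56-fold. The mean over both probes gave a log2 difference of -3.24 between aging and young. A second Lig4 probe read 0.34, -1.36 and -2.15, which was 3.25-fold lower in aging and 5.62-fold lower in suppressed aging than in young blastocysts. Both probes placed the young array highest and the suppressed aging array lowest, and they differed in size.

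Pms2 is a subunit of the complex that cuts the mispaired strand in mismatch repair. Its level was 2.61 in the young, -0.39 in the aging and -0.41 in the treated pool, 7.96-fold and 8.09-fold lower than in the young pool. The aging arrays differed by 1.02-fold. A second Pms2 probe read 0.24 on the young array and was not well above background on either aging array. On this probe Pms2 was at least 23.6-fold lower in aging and at least 18.0-fold lower in suppressed aging than in young blastocysts. These were the 2 of the 50 genes whose brightest probe differed by over 5-fold in any comparison. Among all genes, 2.58% were over 5-fold apart, in either direction, in aging against young, 2.29% in suppressed aging against aging, and 2.43% in suppressed aging against young. None of the 50 was over 5-fold apart between the aging arrays on its brightest probe.

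**Figure D2:**
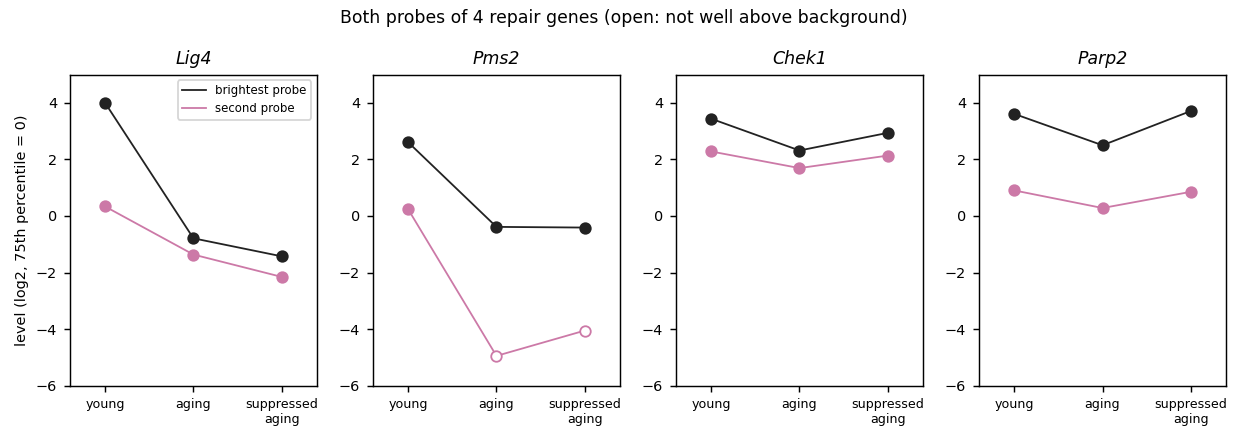
Level of both probes of Lig4, Pms2, Chek1 and Parp2 on the 3 arrays (log2, 75th percentile at 0; open symbols were not well above background; 1 pool per condition). The young array is highest on both probes of Lig4 and Pms2, and the aging array is lowest on both probes of Chek1 and Parp2.

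The sequence before the start of these genes is given below, from the RefSeq promoter table of GRCm38.p6. Shown are Lig4 and Pms2, which differed most, and Chek1 and Parp2, which were lowest on the aging array on both probes. Each sequence runs 5′ to 3′ on the gene's strand and ends at the base before the first annotated start. Capitals mark the GC box (GGGCGG), the CCAAT box (CCAAT) and the core of the site of E2F, a family of factors that act at the start of S phase (GCGGGAA), each on either strand. These motifs were chosen after the sequences had been seen.
Lig4, chr8:9977681-9977930, minus strand: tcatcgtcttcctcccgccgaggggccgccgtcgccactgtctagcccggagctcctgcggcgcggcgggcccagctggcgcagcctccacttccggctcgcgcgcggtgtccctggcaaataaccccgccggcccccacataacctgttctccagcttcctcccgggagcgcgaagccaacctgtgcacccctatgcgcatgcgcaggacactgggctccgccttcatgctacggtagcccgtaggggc
Pms2, chr5:143909751-143909900, plus strand: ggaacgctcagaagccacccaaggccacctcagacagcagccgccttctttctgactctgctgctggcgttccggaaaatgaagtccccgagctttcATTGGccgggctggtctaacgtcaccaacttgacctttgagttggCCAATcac
Chek1, chr9:36726659-36726908, minus strand: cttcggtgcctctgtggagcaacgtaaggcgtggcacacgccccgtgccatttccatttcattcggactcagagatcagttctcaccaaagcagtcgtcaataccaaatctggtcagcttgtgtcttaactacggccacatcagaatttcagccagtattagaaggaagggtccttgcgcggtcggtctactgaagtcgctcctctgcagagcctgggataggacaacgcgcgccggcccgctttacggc
Parp2, chr14:50807666-50807896, plus strand: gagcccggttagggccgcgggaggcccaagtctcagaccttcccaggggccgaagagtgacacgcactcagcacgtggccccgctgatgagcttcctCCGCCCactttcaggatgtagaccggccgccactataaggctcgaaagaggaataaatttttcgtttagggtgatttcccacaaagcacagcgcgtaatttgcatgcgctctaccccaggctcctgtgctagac

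The letters of the 3 motifs were not in the stretches shown of Lig4 and Chek1, whereas that of Pms2 held 2 CCAAT boxes and that of Parp2 held 1 GC box. The stretches shown differ in length, with 250 bases for Lig4 and Chek1, 231 for Parp2 and 150 for Pms2, since bases after the first annotated start were left out. Counts of motifs used the whole window of the table, 250 bases before to 50 after the listed start, which it gave for 41 of the 50 genes. In these windows the GC box was found in 30 of 41 repair genes (73.2%) and in 35.9% of 27025 genes in the table. The CCAAT box was found in 24 of 41 (58.5%) and in 37.9% of all, and the E2F core in 14 of 41 (34.1%) and in 4.66% of all. The windows of the repair genes were also richer in G and C, with a median of 58.7% against 52.7%, and this share was not held equal. Of the 14 genes with the E2F core, Atm, Bard1 and Chek1 (with its match after the start) were over 2-fold apart between aging and young. The other 11, among them Brca2, Msh6 and Xrcc6, were not. In that comparison 19.0% of all genes and 30.6% of the repair genes with a value were over 2-fold apart. The window of Pms2 also held a GC box, outside the stretch shown. A match is a run of letters and not a measured site of binding.

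Among the 50 repair genes, read by their brightest probes, 29 were lower and 20 higher in the aging than in the young pool. The direction differed by role. End joining, base excision and single-strand break repair, and nucleotide excision repair each had 4 genes higher and 3 lower. Mismatch repair had 1 of each, and the remaining roles had more genes lower. Among the 99 other repair genes, 57 were higher and 41 lower. Of the 50 genes, 49 had a value on the brightest probe. Of these 49, 10 were over 2-fold lower and 5 over 2-fold higher in aging than in young blastocysts, 15 in all (30.6%). Among 16161 genes, 9.19% were over 2-fold lower and 9.86% over 2-fold higher. The median difference of the repair genes was -0.14 and that of all genes was 0.03. The mean over all probes of a gene gave 5 lower and 6 higher, with Atm, Chek1, Parp2, Rad50 and Trp53bp1 no longer over 2-fold. Normexp background correction gave 5 lower and 1 higher, which were Chek1, Lig4, Parp2, Pms2, Trp53bp1 and, higher, Rad54l. Of all genes, the mean over probes gave 6.33% lower and 7.22% higher, and normexp gave 2.53% lower and 2.78% higher.

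Between suppressed aging and aging blastocysts, 6 of 50 repair genes were over 2-fold lower and 3 over 2-fold higher, next to 8.5% and 8.76% of all genes. Between suppressed aging and young blastocysts, 10 of 50 were over 2-fold lower and 1 was over 2-fold higher, next to 7.63% and 8.68% of all genes. Under normexp, 3 genes stayed over 2-fold apart in the former comparison (Ercc4, Parp2 and Rad54l) and 3 in the latter (Lig4, Pms2 and Rbbp8). Of all genes, normexp gave 2.30% lower and 2.46% higher in the former and 2.27% lower and 2.38% higher in the latter. The mean over all probes kept Ercc4, Rad54l, Xrcc2 and Xrcc4 in the former and ended the calls of Atm and Mdc1 in the latter. The medians were -0.15 and 0.01, against 0.00 and 0.03 over all genes. The 3 comparisons share arrays pairwise and are not independent of each other. Of the repair genes, 5 (Atm, Nbn, Rbbp8, Lig4 and Pms2) were over 2-fold lower than young in both aging pools, as were 4.11% of 15507 genes. Both comparisons share the young array.

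**Figure D3:**
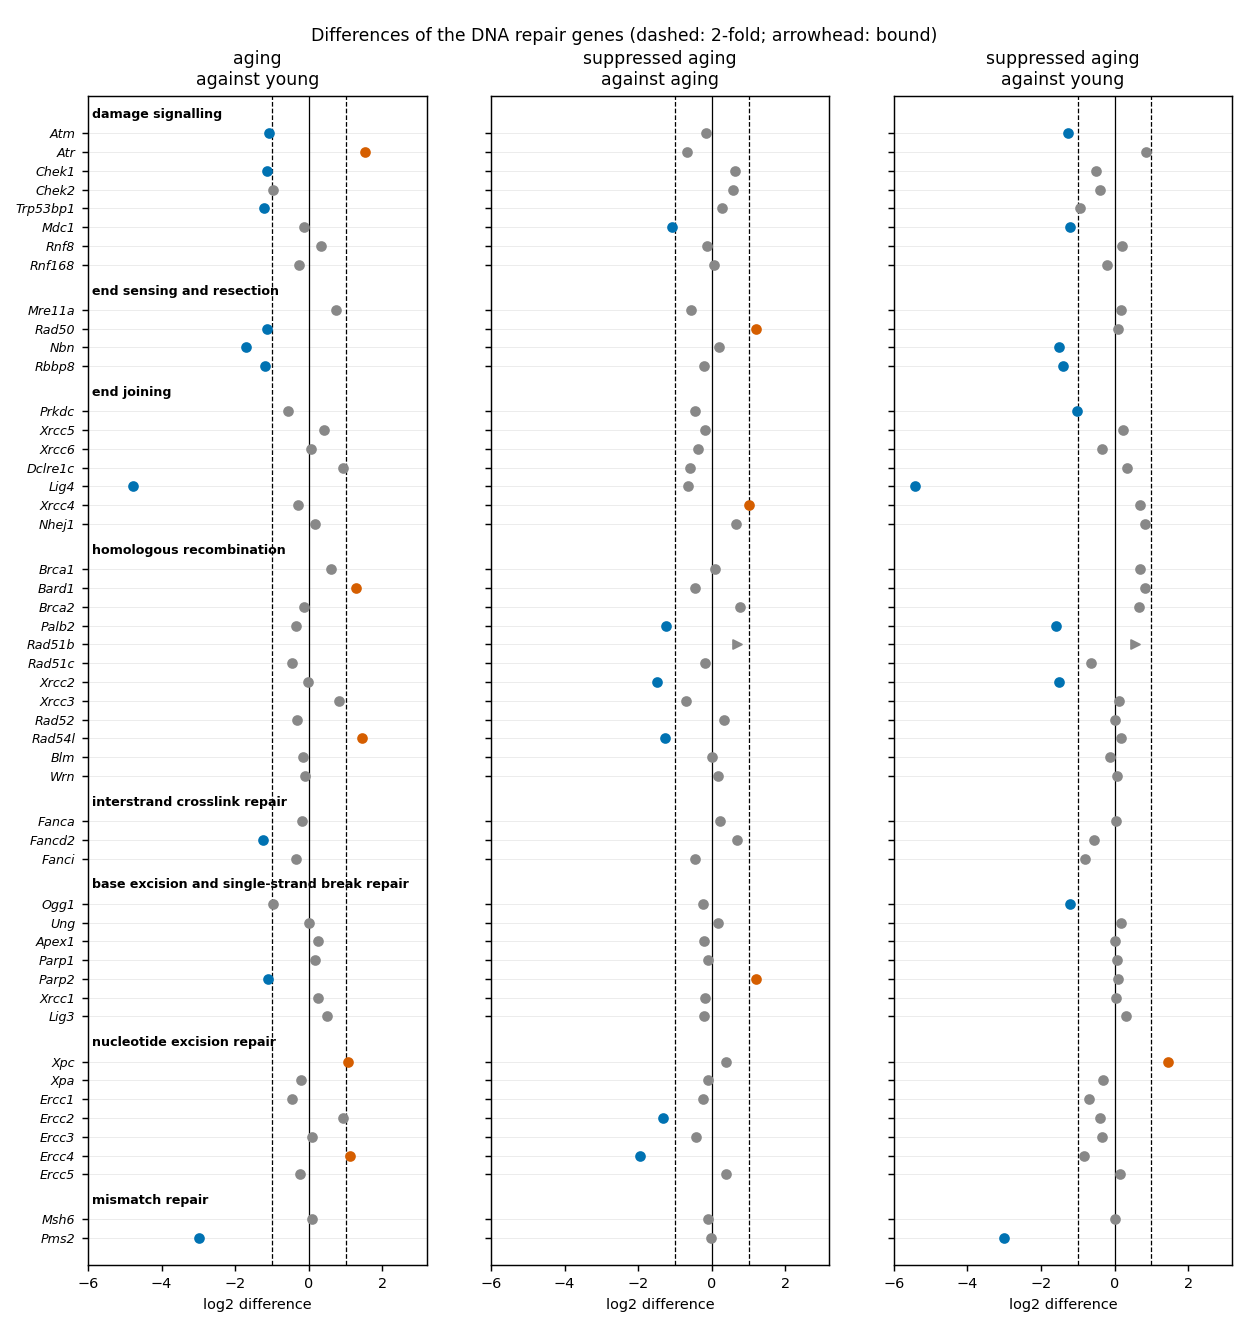
Log2 difference of each of the 50 repair genes in the 3 comparisons, with dashed lines at 2-fold, blue for over 2-fold lower, orange for over 2-fold higher, grey for the rest and arrowheads for bounds. Lig4 and Pms2 lie far to the left in both comparisons with young. In suppressed aging against aging, Pms2 lies near 0 and Lig4 at -0.64.

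Among the damage signalling genes, 3 of 8 were over 2-fold lower in aging than in young blastocysts and 1 was higher, next to 9.19% and 9.86% of all genes. Atm, the kinase that responds to double-strand breaks, had a level of 0.02 in the young, -1.07 in the aging and -1.24 in the treated pool, 2.14-fold and 2.4-fold lower than young. A second Atm probe read -1.46, -1.40 and -1.02 and did not show this. Atr, the kinase that responds to single-stranded DNA, had 1 probe, which read -1.42, 0.10 and -0.58, 2.88-fold higher in aging than in young. The treated pool lay between the others for Atr, 1.60-fold below aging and 1.80-fold above young.

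Chek1 and Chek2 are the kinases that pass the signal of ATR and ATM on to the cell cycle. Chek1 read 3.44, 2.31 and 2.94 on the young, aging and suppressed aging array, 2.18-fold lower in aging than in young. In the suppressed aging pool it was 1.54-fold above aging and 1.41-fold below young. A second Chek1 probe gave the same order, with 2.28, 1.69 and 2.13 and a 1.5-fold lower level in aging. Chek2 read -0.06, -1.04 and -0.46, which was 1.98-fold lower in aging and so just short of 2-fold. Both checkpoint kinases were thus lowest in the aging pool.

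The remaining signalling genes bind or mark the chromatin beside a break. Trp53bp1, which shields ends from trimming, read 1.75, 0.54 and 0.80 on its brightest probe, 2.32-fold lower in aging. Its 3 other probes gave log2 differences of -0.60, 1.53 and 0.08 between aging and young, so the probes did not share a direction. Mdc1, the scaffold that holds repair proteins at a break, read 1.75, 1.61 and 0.53, 2.11-fold lower in suppressed aging than in aging and 2.34-fold lower than in young. A second Mdc1 probe was 1.52-fold lower than aging and 1.15-fold lower than young. Rnf8 read 0.73, 1.05 and 0.92, and Rnf168 read 1.14, 0.86 and 0.92. These ubiquitin ligases stayed within 2-fold in the 3 comparisons.

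Of the 4 genes that sense and trim broken ends, 3 were over 2-fold lower in aging than in young blastocysts, next to 9.19% of all genes. Normexp background correction brought all 3 within 2-fold in this comparison, with log2 differences of -0.88 (Nbn), -0.92 (Rbbp8) and -0.88 (Rad50). Nbn, the MRN subunit that recruits ATM, read -1.02, -2.72 and -2.52, 3.26-fold lower in aging and 2.84-fold lower in suppressed aging than in young. Its levels in both aging pools were dim, and normexp moved the log2 difference between suppressed aging and young to -0.66. Rbbp8, which encodes CtIP and starts the trimming, read 0.56, -0.62 and -0.84, 2.28-fold and 2.64-fold lower. Both were low in both aging pools, and both had 1 probe only. Rad50, the ATPase of MRN, read 1.91, 0.77 and 1.99, 2.19-fold lower in aging than in young and 2.32-fold higher in suppressed aging than in aging. A second Rad50 probe read 0.70, 0.85 and -0.17 and placed the suppressed aging pool lowest. Mre11a, the nuclease of MRN, read 0.73, 1.49 and 0.91 and was 1.68-fold higher in aging.

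In end joining, Lig4 stood apart from its partners. Xrcc4, the scaffold to which LIG4 binds, read -3.35, -3.65 and -2.65, 1.23-fold lower in aging than in young and 2.00-fold higher in suppressed aging than in aging. Xrcc5 and Xrcc6, the Ku subunits that cap a broken end, read -0.43, -0.03 and -0.20 and 2.70, 2.75 and 2.37. Prkdc, the kinase recruited by Ku, read -0.70, -1.27 and -1.74, 1.49-fold lower in aging and 2.05-fold lower in suppressed aging than in young. A second Prkdc probe was above background on the young array only and gave bounds of at least 1.85-fold and at least 1.42-fold lower. Dclre1c, the Artemis nuclease, read -1.08, -0.15 and -0.75, and Nhej1, which bridges the ends, read -0.76, -0.59 and 0.06. Apart from Lig4, none of these 7 end joining genes was over 2-fold apart between aging and young. Of 9 other end joining genes, Polm, Poll and Paxx were over 2-fold higher in aging and Aplf was over 2-fold lower. Of all genes, 9.86% were over 2-fold higher and 9.19% lower.

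In homologous recombination, 2 of 11 genes were over 2-fold higher in aging than in young blastocysts and none was over 2-fold lower. This was 18.2% either way, near the 19.0% of all genes. Rad54l, the motor protein that drives strand exchange, read 1.57, 3.01 and 1.74, 2.71-fold higher in aging than in young and 2.41-fold lower in suppressed aging than in aging. The treated pool was 1.12-fold above young. Bard1, the partner of BRCA1, read -0.68, 0.61 and 0.15, 2.44-fold higher in aging and 1.77-fold higher in suppressed aging than in young. Rad54l had 1 probe, and a second Bard1 probe was above background on the suppressed aging array only.

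Of the 12 recombination genes, 3 were over 2-fold lower in suppressed aging than in aging blastocysts, next to 8.5% of all genes. Rad54l among them is given above. Palb2, which joins BRCA1 to BRCA2, read -1.40, -1.76 and -3.01, 2.37-fold lower than in aging and 3.04-fold lower than in young. A second Palb2 probe read -0.98, -2.57 and -3.03, 1.38-fold lower than aging and 4.13-fold lower than young. Both probes were thus lowest in the treated pool, and they placed the drop between different arrays. Xrcc2, which acts in strand exchange, read -1.43, -1.45 and -2.95 on its single probe, 2.82-fold lower than in aging and 2.87-fold lower than in young. The treated levels of Palb2 and Xrcc2 were dim. Normexp background correction moved their log2 differences between suppressed aging and aging to -0.21 and -0.39.

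Brca1 and Brca2, tumour suppressors that act on trimmed ends, stayed within 2-fold. Brca1 read 1.04, 1.65 and 1.73, with log2 differences of 0.61 and 0.69 from young, and its second probe differed from young by -0.31 and 0.02. Brca2 read 0.48, 0.36 and 1.13, with log2 differences of -0.12 and 0.65 from young, while 2 other probes gave 0.56 and 0.34 in aging and 0.03 and -0.03 in suppressed aging. The probes of these genes did not share a direction. Rad51c read -1.03, -1.50 and -1.68, Xrcc3 read -1.94, -1.10 and -1.81, and Rad52 read 0.33, 0.02 and 0.34. Blm and Wrn, helicases that unwind joined molecules, read 3.81, 3.66 and 3.68 and 7.82, 7.71 and 7.89. For Rad51b, the level of -3.64 on the suppressed aging array gave bounds of at least 1.61-fold above aging and at least 1.48-fold above young.

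Of the genes for interstrand crosslinks, Fancd2, which is ubiquitinated at a crosslink, read -2.64, -3.89 and -3.20, 2.39-fold lower in aging than in young. It was 1.61-fold higher in suppressed aging than in aging. Fancd2 had 1 probe, which was dim, and normexp moved its log2 difference between aging and young from -1.26 to -0.39. Fanci, its partner, read 0.16, -0.18 and -0.64, and Fanca, a subunit of the ligase complex that modifies them, read 3.1, 2.90 and 3.14. Both stayed within 2-fold.

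Among the base excision and single-strand break repair genes, 6 of 7 lay within 2-fold between aging and young. The exception was Parp2, a polymerase of poly(ADP-ribose) at breaks, which read 3.61, 2.50 and 3.71, 2.16-fold lower in aging than in young and 2.32-fold higher in suppressed aging than in aging. A second Parp2 probe read 0.90, 0.28 and 0.85, with the same order of aging and young and a 1.54-fold difference. In suppressed aging Parp2 was within 1.07-fold of young on the brightest probe and 1.03-fold on the second. Parp1, the main enzyme of this kind, read 1.79, 1.97 and 1.86 and differed by 1.13-fold at most.

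Ogg1, the glycosylase that removes oxidized guanine, read -0.87, -1.86 and -2.08, 1.98-fold lower in aging and 2.32-fold lower in suppressed aging than in young. Ung, which removes uracil, read 10.02, 10.01 and 10.19. Apex1, the endonuclease that follows a glycosylase, read 4.58, 4.82 and 4.59. Xrcc1 and Lig3, scaffold and ligase of the last step, read 3.61, 3.85 and 3.66 and 2.01, 2.52 and 2.31. Apart from Ogg1 and Parp2, this group stayed within 2-fold in the 3 comparisons on the brightest probes.

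In nucleotide excision repair, 2 of 7 genes were over 2-fold higher in aging than in young blastocysts, next to 9.86% of all genes. Ercc4, the XPF nuclease that cuts before a lesion, read -0.54, 0.58 and -1.36, 2.16-fold higher in aging than in young and 3.83-fold lower in suppressed aging than in aging. A second Ercc4 probe was above background on the aging array only, at least 3.21-fold above young and at least 2.67-fold above suppressed aging, and a further probe was above background on the suppressed aging array only. Xpc, which recognizes a distorted helix, read -3.54, -2.48 and -2.09, 2.08-fold higher in aging and 2.73-fold higher in suppressed aging than in young. These levels were dim. The second Xpc probe had a log2 difference of -0.24 between aging and young and, being not well above background in the treated pool, was there at least 3.07-fold lower than in young, opposite to the brightest probe. On the brightest probe normexp background correction turned both differences to -0.07 and -0.14.

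Ercc2, a helicase of TFIIH that opens the DNA, read -0.32, 0.60 and -0.71, 1.89-fold higher in aging than in young and 2.48-fold lower in suppressed aging than in aging. A second Ercc2 probe was 2.28-fold higher in aging and 2.80-fold higher in suppressed aging than in young. Between suppressed aging and aging this second probe had a log2 difference of 0.30, opposite in direction to the brightest. Normexp (-0.83 on the brightest probe) and the mean over probes each brought that difference within 2-fold. Ercc3, the other helicase of TFIIH, read -0.71, -0.63 and -1.06. Xpa, which checks the lesion, read 3.18, 2.96 and 2.86, Ercc1, the partner of ERCC4, read 2.30, 1.85 and 1.62, and Ercc5, the nuclease that cuts behind the lesion, read 1.75, 1.5 and 1.89. These 4 genes stayed within 2-fold on the brightest probes.

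In mismatch repair, Msh6, which recognizes a mispair, differed far less than Pms2. It read 3.27 in the young, 3.35 in the aging and 3.26 in the treated pool, a largest difference of 1.06-fold.

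In all, 22 of the 50 genes were over 2-fold apart in at least 1 comparison and 28 in none, next to 30.8% of 16584 genes over 2-fold apart in at least 1. On the brightest probes of those 28, log2 differences ran from -0.98 to 0.93 between aging and young, with a median size of 0.25, from -0.70 to 0.78 in suppressed aging against aging, and from -0.80 to 0.82 in suppressed aging against young.

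Probes of the same gene were compared with each other. On an array they read the same pool, so their agreement bears on the probes and not on the spread between pools. Of the 50 genes, 28 had 2 or more probes and 22 had 1. Between aging and young, 23 genes had a measured second probe, and its direction was that of the brightest probe in 11 of them, next to 56.7% of 4856 genes over the whole array. Of 7 repair genes over 2-fold apart on the brightest probe, 4 kept the direction on the second, next to 397 of 669 genes over the whole array. Lig4 alone was over 2-fold on both in the same direction, next to 2.80% of all, with the second probe of Pms2 giving a bound. Between suppressed aging and aging, 11 of 22 genes shared the direction, next to 54.9% of all, and none was over 2-fold on both, next to 2.14% of all. Between suppressed aging and young, 15 of 22 shared it, next to 56.0% of all, and Lig4 and Palb2 were over 2-fold on both, next to 1.96% of all.

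**Figure D4:**
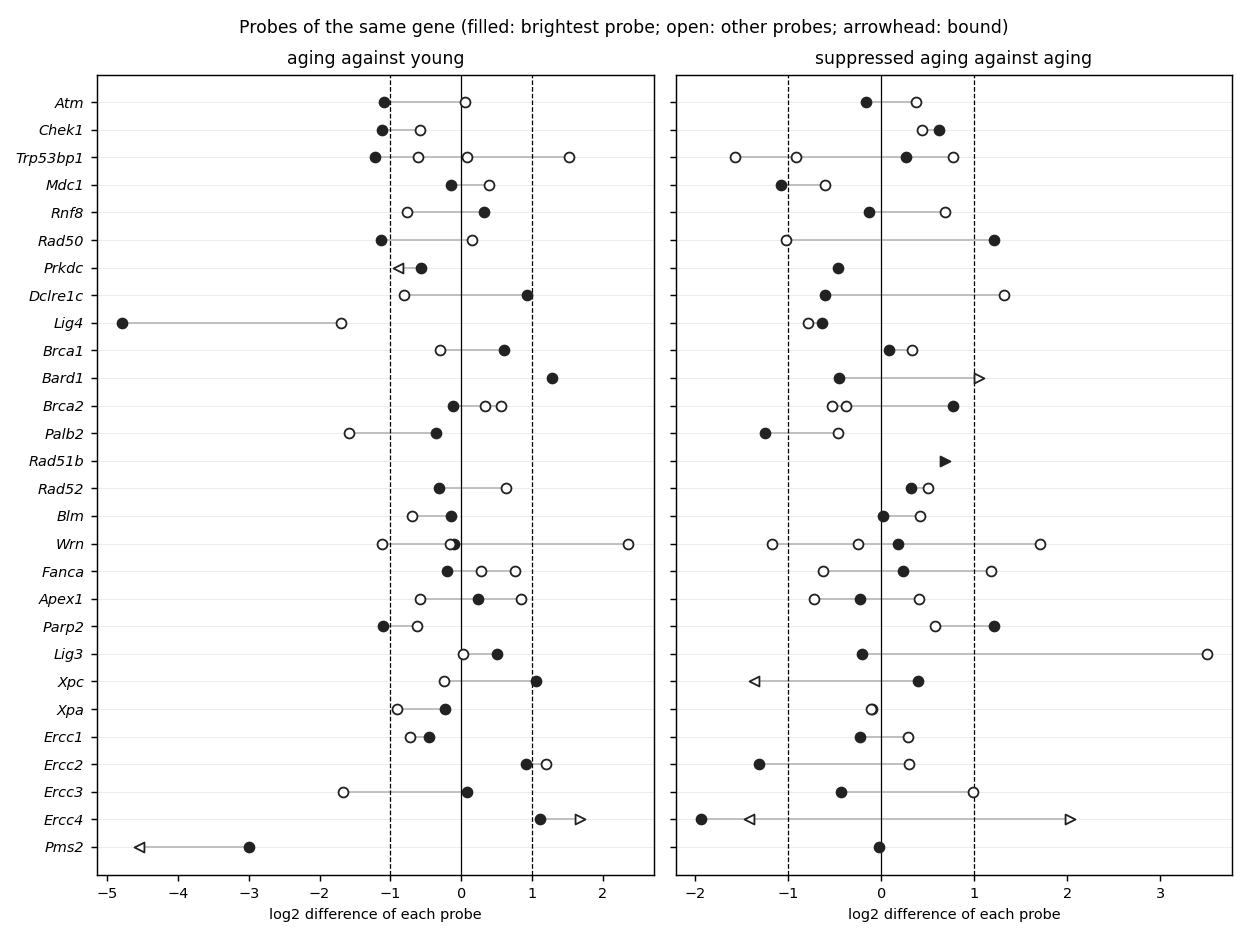
Log2 difference of each probe for the 28 repair genes with 2 or more probes, between aging and young and between suppressed aging and aging (filled, brightest probe; open, other probes; arrowheads, bounds; dashed lines, 2-fold). Lig4 and Pms2 are the genes whose probes all lie to the left of -1 between aging and young.

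A further 99 repair genes of the same roles, or of direct reversal of damage, were listed beside the 50. Between aging and young, 6 of 98 with a value were over 2-fold lower and 7 over 2-fold higher, with a median difference of 0.12. Together this was 13.3%, below the 19.0% of all genes. For suppressed aging against aging 6 of 97 were lower and 6 higher, and against young 3 of 98 were lower and 8 higher, which was 12.4% and 11.2% next to 17.3% and 16.3% of all genes. Atrip, the partner that brings ATR to single-stranded DNA, had a pattern like that of Lig4, with 4.20 in the young, 0.30 in the aging and -0.34 in the treated pool and log2 differences of -3.90 and -4.54 from young on its single probe. Abraxas1, a scaffold of a BRCA1 complex, read -0.51, 1.92 and -0.60, a log2 difference of 2.43 between aging and young and of -2.52 between suppressed aging and aging. Its second probe gave 1.41 and -1.35, so both probes had the aging array highest. Alkbh2, which reverses alkylation of bases, read -0.55, 0.33 and 2.90 on its single probe, and the treated pool lay 2.57 above aging on the log2 scale, the furthest among these 99.

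As a measure of the whole pools, the median difference of 18 proliferation genes was 0.02 between aging and young, 0.13 in suppressed aging against aging and 0.07 against young, and that of 15 housekeeping genes was -0.08, 0.05 and 0.03. Single proliferation genes ran from -1.07 (Top2a) to 0.60 (Cdk1) between aging and young. In suppressed aging against aging they ran from -0.46 (Aurka) to 0.84 (Mki67).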

How the data were processed

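The data are 3 1-colour Agilent mouse arrays, 1 pool of 30 blastocysts each. What the authors deposited is the spot intensity written by Feature Extraction 12.0.3.1 (named in the submitters' processing notes), background-subtracted and detrended within an array but not scaled across arrays. A processed table is these intensities multiplied by a factor for each array (3.46, 3.34 and 3.96, checked over 30763 spots) and served as an alternative. The labels name a kit that labels cRNA from total RNA, whereas a global PCR with 1 primer is described in the methods of the paper, which can change relative levels, and nothing in the files settles this. No spot was saturated, and detection ended at -4.20, -4.32 and -3.93 on the log2 scale.

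Control spots and spots marked as outliers (100, 85 and 118) were left out. Replicate spots were averaged as log2 intensity, and the 75th percentile of each array (an intensity of 145, 155 and 122) was subtracted. Each gene was read by its probe with the highest mean signal. Above background is the scanner software's own call, and a bound uses the lowest level above background on the dim array. Gene names came from the accessions in the files and a RefSeq table of GRCm38.p6, which named 33754 of 56591 probes. The array design names an older build, so the table gave names, and coordinates are given for its own promoter windows only. Probe sequences were not used here.

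The members and the lists were chosen with earlier results of these data known. Levels are given in full for members over 2-fold apart in any comparison and for a fixed set of others (Atm, Atr, Chek1, Chek2, Trp53bp1, Brca1, Brca2, Prkdc, Parp1, Xpc and Msh6). Further repair genes could be named where they were over 2-fold apart, up to 5 per direction and comparison. Results were recomputed with normexp (limma 3.58.1, offset 50), with quantile normalization, with centring on probes above background or on housekeeping genes, with the authors' processed values, with outlier spots kept, with a mean over each gene's probes, with stricter and no filters on dim genes, and with a 5-fold threshold. The scripts were tested on simulated data. Computations used Python 3.11.15, NumPy 2.4.6, pandas 2.3.3, Matplotlib 3.10.9 and R 4.3.3.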

Additional observations from a re-analysis of the deposited data

How the results depend on the processing

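Lig4 and Pms2 stayed over 2-fold below young on both aging arrays under all 9 alternatives to the processing, with log2 differences from -4.80 to -3.24 for Lig4 and from -3.01 to -2.38 for Pms2 between aging and young. Of the 15 genes over 2-fold apart between aging and young, 3 (Lig4, Pms2 and Rad54l) stayed so under all 9. Of the 9 between suppressed aging and aging, 2 (Ercc4 and Rad54l) did, and of the 11 between suppressed aging and young, 3 (Lig4, Pms2 and Rbbp8) did. Not all 9 could end a call. The filters on dim genes cannot alter a gene above background on all 3 arrays. The mean over probes cannot alter Rad54l and Rbbp8, with 1 probe, or Pms2 and Ercc4, whose other probes were left out there. Only normexp and the mean over probes ended any call between aging and young. Normexp background correction gave 6, 3 and 3 genes over 2-fold apart in the 3 comparisons and a median of -0.10 between suppressed aging and young. Under it Xpc turned to -0.069 between aging and young and to -0.14 between suppressed aging and young. Averaging each gene's probes gave 5 genes over 2-fold apart between suppressed aging and aging, 4 of them among the 9, with medians of -0.043 there and -0.024 between aging and young. Of all genes, averaging gave 6.25% lower and 5.94% higher between suppressed aging and aging. At 5-fold the counts were 2, 0 and 2. Centring on housekeeping genes moved the median to -0.054 between aging and young and to -0.23 between suppressed aging and aging, and the authors' processed values moved the latter to -0.24. The causes were not tested.

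Keeping dim genes without a filter shifted the median of all genes to -0.11 between aging and young and to 0.13 between suppressed aging and aging. No paired analysis was possible because no condition had a second array, and no replicate could be left out. Signal over background limits the dimmest genes, such as Rad51b, Fancd2, Xpc and Xrcc4, Nbn in both aging pools, and Palb2 and Xrcc2 in the treated pool.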

Other observations

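Some probes of 1 gene differed from each other far beyond the spread of replicate spots, and the transcripts they read were not compared here. A second Lig3 probe read 1.08 in the young, 1.12 in the aging and 4.62 in the treated (suppressed aging) pool, 11.3-fold above aging and 11.6-fold above young, whereas the brightest Lig3 probe differed by 1.16-fold and 1.23-fold. A second Wrn probe read -2.41, -0.05 and -1.23, 5.14-fold higher in aging than in young, while the brightest differed by 1.08-fold and a further probe was 2.17-fold lower in aging. A second Ercc3 probe read -0.69, -2.37 and -1.38, 3.19-fold lower in aging than in young, where the brightest differed by 1.06-fold. A second Dclre1c probe was 1.76-fold lower in aging than in young, where the brightest was 1.91-fold higher. A further Fanca probe read -3.05, -2.29 and -1.12, 3.83-fold higher in suppressed aging than in young, against 1.03-fold on the brightest.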
